A study of Mus musculus with 12 samples.

Results

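Chondromodulin (Cnmd) and cell adhesion molecule 4 (Cadm4) were described together with 8 genes of Vegf and angiopoietin signalling in the liver of adult male mice: the ligands Vegfa, Vegfb, Angpt1 and Angpt2, and the receptors Flt1, Kdr, Nrp1 and Tek. These 10 genes were 10 of the 52636 gene identifiers counted and 10 of the 12453 genes whose mean count over the libraries was at least 12. Cnmd and Cadm4 were chosen from the genes that the study listed as lower after the deficient diet, on these same libraries. The other 8 were chosen from textbook roles in the pathway, but with earlier results of these data known. For that reason the values of all 10 genes between the diets are given as a description, and no p-value is given for any of them. How many of them passed each threshold is stated once, beside the share of all genes. The 6 VDD-F1 mice were sons of C57Bl/6J mothers kept on a vitamin D deficient diet (0 IU/g, with calcium gluconate) from before mating until delivery. The 6 VDS-F1 mice were sons of mothers on a vitamin D sufficient diet throughout. After delivery all mothers received the sufficient diet, as did all offspring after weaning, and none of the mice carried an engineered allele. RNA came from the left lateral lobe of the liver at 16 weeks of age, and 14275793 to 20815066 read pairs per library were assigned to genes. The labels do not tie the mice to litters, so p-values measure the spread between these animals.

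Vascular endothelial growth factors are secreted proteins that act on receptor tyrosine kinases of endothelial cells. Kdr (Vegfr2) carries most of the growth signal of Vegfa, Flt1 (Vegfr1) binds Vegfa tightly and limits what reaches Kdr, and Nrp1 is a co-receptor that strengthens the binding of Vegfa to Kdr. The angiopoietins act on a separate receptor, Tek (Tie2): Angpt1 activates it and stabilises vessels, whereas Angpt2 opposes Angpt1 in many settings. In liver, the sinusoids are lined by fenestrated endothelium that receives Vegfa from hepatocytes. Cnmd is a membrane glycoprotein best known from cartilage, whose released domain inhibits vessel growth. Cadm4 is an adhesion protein of the immunoglobulin superfamily that is known to bind Vegf receptors and to restrain their phosphorylation.

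The liver identity of the samples was clear from hepatocyte markers. Levels are given as counts-per-million (CPM), the count scaled to the size of its library. Albumin (Alb) ranged from 66043 to 79284 CPM in VDD-F1 and from 55809 to 69016 CPM in VDS-F1, and all 8 hepatocyte markers passed the filter. Of 5 cartilage markers, Matn1 and Col9a1 had no read in any library, Col2a1 reached at most 0.189 CPM and Acan at most 0.158 CPM. Sox5 was the remaining one, at 12.9 to 33.5 CPM. The reads of Cnmd were counted in samples where these cartilage markers other than Sox5 were at or near 0. The source of the reads was not tested.

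The 250 bases before the RefSeq start of Cnmd and of Cadm4 are shown because these are the genes of the group that lay lowest in VDD-F1 relative to VDS-F1. Both are read 5′ to 3′ on the strand of the gene in GRCm38.p6, and capitals mark CpG dinucleotides. Cnmd lies on the minus strand (chr14:79662184-79662433) and Cadm4 on the plus strand (chr7:24481773-24482022).
Cnmd: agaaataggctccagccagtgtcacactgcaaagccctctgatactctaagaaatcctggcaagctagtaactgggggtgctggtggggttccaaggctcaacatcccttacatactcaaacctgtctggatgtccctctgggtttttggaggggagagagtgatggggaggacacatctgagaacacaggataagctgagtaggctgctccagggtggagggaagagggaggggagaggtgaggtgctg
Cadm4: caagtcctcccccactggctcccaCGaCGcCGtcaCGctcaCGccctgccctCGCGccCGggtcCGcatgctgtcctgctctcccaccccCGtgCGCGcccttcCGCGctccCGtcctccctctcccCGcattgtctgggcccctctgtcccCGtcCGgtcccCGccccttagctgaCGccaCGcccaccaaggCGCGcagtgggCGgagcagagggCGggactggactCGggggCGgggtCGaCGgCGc
The sequences differ in base composition. The Cadm4 window held 30 CpG dinucleotides and 75.2% G or C, and 94.8% of the 32851 RefSeq mouse promoter windows of the same length had no more CpG than that. The Cnmd window held 0 CpG and 54% G or C, and 7.87% of the windows were likewise without CpG. The median window had 6. Neither sequence held, on either strand, a nuclear receptor half-site of the letters AGGTCA or its variants GGTTCA as well as AGTTCA, found in 30.7% of all windows, or the hypoxia response core ACGTG, found in 16.6%. Neither held TATAAA, found in 12.4% of the windows.

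Cadm4 (ENSMUSG00000054793.8, chromosome 7, 24482023 to 24504539, plus strand) was lower in every VDD-F1 liver than in any VDS-F1 liver. In VDD1 to VDD6 it stood at 6.06, 1.15, 4.29, 1.58, 2.10 and 1.68 CPM. In VDS1 to VDS6 it stood at 10.8, 9.56, 8.52, 9.42, 7.98 and 11.6 CPM. The groups did not overlap, and VDD1 and VDD3 were the highest of the VDD-F1 livers. The group means were 2.81 ± 1.94 and 9.65 ± 1.36 CPM (SD, n = 6 each), and the fitted log2 fold change was -1.80 with a standard error (SE) of 0.34. The counts behind these levels ranged from 22 to 96 in VDD-F1 and from 115 to 219 in VDS-F1.

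Cnmd (ENSMUSG00000022025.13, chromosome 14, 79637690 to 79662170, minus strand) was a gene of few reads in these livers. It had 14, 0, 12, 5, 5 and 6 counts in VDD1 to VDD6, or 0.884, 0, 0.904, 0.343, 0.263 and 0.280 CPM. The count of 0 in VDD2 allows a level of up to 0.157 CPM (3 counts), by counting error alone. In VDS1 to VDS6 it had 13, 30, 29, 36, 43 and 22 counts, or 0.642, 1.77, 1.99, 1.87, 2.99 and 1.57 CPM. The groups overlapped through 1 library, since VDS1 lay below VDD1 and VDD3 whereas the other 5 VDS-F1 livers lay above all VDD-F1 livers. The group means were 0.446 ± 0.367 and 1.81 ± 0.754 CPM, with a fitted log2 fold change of -2.05 (SE 0.56). Cnmd reached the filter through VDS-F1, with a mean count of 28.8 there and 7 in VDD-F1, so that a difference in this direction was built into its inclusion.

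**Figure D1:**
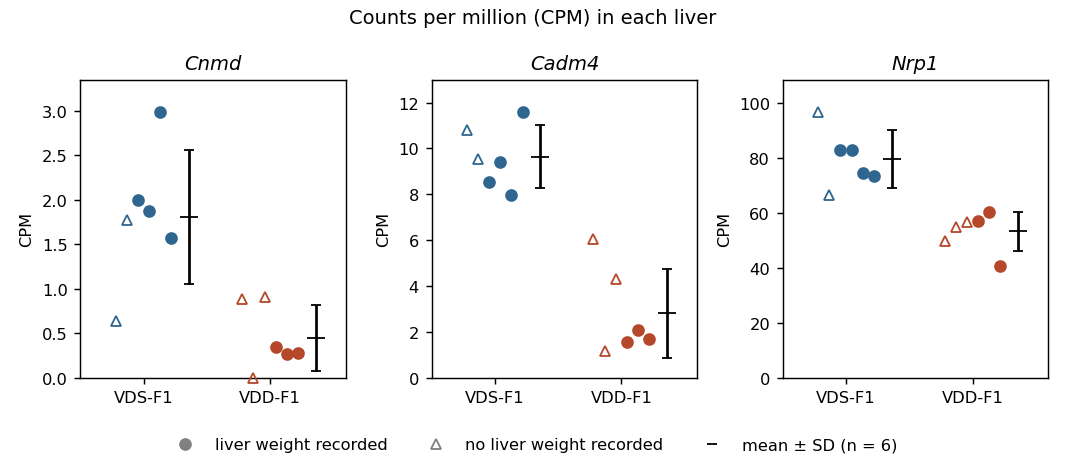
CPM of Cnmd, Cadm4 and Nrp1 in each liver (y axis, from 0) by diet group (x axis). Filled circles are the 7 mice whose liver weight is on record, open triangles the other 5, and bars the mean ± SD of 6. All VDD-F1 points lie below all VDS-F1 points for Cadm4 and Nrp1, and VDS1 (0.642 CPM) is the VDS-F1 liver that overlaps for Cnmd.

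Nrp1, the Vegfa co-receptor (ENSMUSG00000025810.9, chromosome 8, 128358604 to 128503363, plus strand), was the only receptor of the 4 whose groups did not overlap. It stood at 49.9, 54.7, 56.6, 56.9, 60.4 and 40.8 CPM in VDD1 to VDD6. In VDS1 to VDS6 it stood at 96.7, 66.3, 82.8, 83.0, 74.6 and 73.3 CPM. The means were 53.2 ± 6.99 and 79.5 ± 10.5 CPM and the log2 fold change was -0.58 (SE 0.11), a smaller difference than those of Cnmd and Cadm4 on a higher mean count (1119 for Nrp1, 103 for Cadm4 and 17.9 for Cnmd).

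The tyrosine kinase receptors of Vegf lay close together between the diets. Kdr (ENSMUSG00000062960.10, chromosome 5, 75932827 to 75978458, minus strand) ranged from 49.0 to 80.9 CPM around a median of 65.1 in VDD-F1, and from 54.1 to 80.5 around 69.1 in VDS-F1, with a log2 fold change of -0.11 (SE 0.13). Flt1 (ENSMUSG00000029648.13, chromosome 5, 147561604 to 147726011, minus strand) ranged from 15.5 to 24.9 CPM, median 20.9, in VDD-F1 and from 18.6 to 28.7, median 22.2, in VDS-F1, with a log2 fold change of -0.14 (SE 0.13). The ranges of the diet groups overlapped widely for both genes. Compared per length, the decoy-type receptor Flt1 was at 0.215 ± 0.011 of the level of Kdr in VDD-F1 and at 0.222 ± 0.040 in VDS-F1.

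Tek, the angiopoietin receptor (ENSMUSG00000006386.15, chromosome 4, 94739289 to 94874976, plus strand), stood at 10.9, 14.6, 10.4, 10.2, 15.3 and 14.6 CPM in VDD1 to VDD6. It stood at 7.06 CPM in VDS1 and at 14.4, 16.2, 16.0, 14.9 and 14.2 CPM in VDS2 to VDS6. VDS1 was thus the lowest of all 12 livers, and the other VDS-F1 livers lay within 14.2 to 16.2 CPM. The log2 fold change was -0.12 (SE 0.19) with VDS1 and -0.25 without it.

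Both angiopoietins had few reads and lay higher in VDD-F1 on average. Angpt1 (ENSMUSG00000022309.8, chromosome 15, 42424723 to 42676977, minus strand) stood at 0.821, 1.83, 1.28, 1.10, 1.79 and 1.49 CPM in VDD1 to VDD6. In VDS1 it stood at 1.53 CPM, and in VDS2 to VDS6 at 0.590, 0.206, 0.676, 0.417 and 0.501 CPM. The 5 other VDS-F1 livers lay below all VDD-F1 livers, and VDS1 lay among the VDD-F1 values. The log2 fold change was 1.05 (SE 0.40) over all mice and 1.51 without VDS1.

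Angpt2 (ENSMUSG00000031465.6, chromosome 8, 18690263 to 18741562, minus strand) stood at 0.505, 1.62, 1.13, 1.30, 0.894 and 1.49 CPM in VDD1 to VDD6, and at 0.543, 0.649, 0.687, 0.260, 0.694 and 0.930 CPM in VDS1 to VDS6. VDD1 lay inside the VDS-F1 range and VDD5 just below the highest VDS-F1 value. The log2 fold change was 0.90 (SE 0.35). Both angiopoietins reached the filter through VDD-F1, with mean counts of 24.5 and 11.7 for Angpt1 and of 20.3 and 10 for Angpt2 in VDD-F1 and VDS-F1. Each overlaps a gene on the opposite strand, Gm17473 for Angpt1 and Mcph1 for Angpt2, and the reads were counted by strand. The length-scaled ratio of Angpt2 to Angpt1 was 1.19 ± 0.35 after the deficient diet and 2.04 ± 1.57 after the sufficient diet, so the ratio varied more within VDS-F1 than between the groups.

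The Vegf ligands were far more abundant. Vegfa (ENSMUSG00000023951.17, chromosome 17, 46016993 to 46032369, minus strand) ranged from 37.7 to 54.8 CPM, median 43.7, in VDD-F1 and from 40.1 to 65.6, median 52.1, in VDS-F1, with a log2 fold change of -0.21 (SE 0.12). Vegfb, a ligand of Flt1 (ENSMUSG00000024962.13, chromosome 19, 6982473 to 6987651, minus strand), ranged from 11.4 to 24.3 CPM, median 19.2, in VDD-F1 and from 13.0 to 18.5, median 16.4, in VDS-F1, with a log2 fold change of 0.21 (SE 0.16). The groups overlapped for both ligands. The length-scaled ratio of Vegfb to Vegfa was 1.11 ± 0.22 after the deficient diet and 0.836 ± 0.139 after the sufficient diet, with ranges of 0.805 to 1.33 and 0.641 to 1.05.

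**Figure D2:**
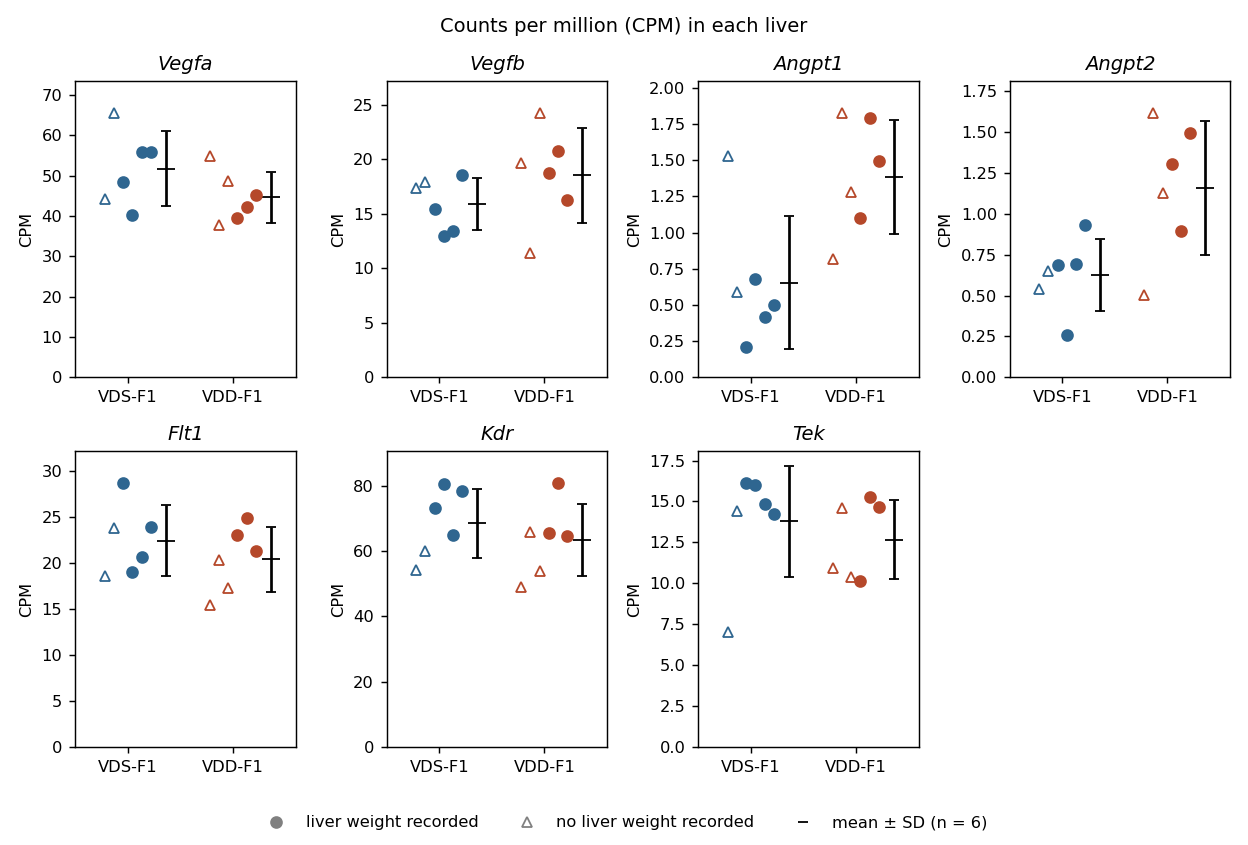
CPM of the 4 ligands and of Flt1, Kdr and Tek in each liver (y axes, from 0) by diet group (x axis), with filled circles for the 7 weighed mice, open triangles for the other 5 and bars for the mean ± SD of 6. The VDS-F1 liver with the highest Angpt1 (1.53 CPM) is the one with the lowest Tek (7.06 CPM).

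On a scale that divides CPM by the kilobases of exon (RPKM), the mean levels in VDS-F1 ran from Vegfa (12.1) through Vegfb (9.93), Nrp1 (8.12), Kdr (7.59), Cadm4 (4.46), Tek (2.93), Flt1 (1.66), Cnmd (0.980) and Angpt2 (0.170) to Angpt1 (0.126). Neighbours in this order overlapped in their ranges over mice except Kdr with Cadm4, Cadm4 with Tek, and Cnmd with Angpt2. In VDD-F1 the order began with Vegfb (11.5), Vegfa (10.4), Kdr (7.02) and Nrp1 (5.44), followed by Tek (2.69), Flt1 (1.51) and Cadm4 (1.30). It ended with Angpt2 (0.314), Angpt1 (0.266) and Cnmd (0.242). There the ranges of neighbours were separate between Nrp1 and Tek, Tek and Flt1, and Cadm4 and Angpt2. Cadm4 lay above Tek in VDS-F1 and below Flt1 in VDD-F1, although its range there overlapped that of Flt1.

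Counted together, 7 of the 10 genes were fitted lower in VDD-F1 and 3 higher, with a median log2 fold change of -0.13, against 0.0041 over all genes tested. By edgeR's quasi-likelihood test, 0 of the 10 were called at a Benjamini-Hochberg adjusted p under 0.05 and a log2 fold change beyond 1, where 0.0161% of all genes were called higher and 0.0241% lower. By DESeq2, 2 were called lower (Cnmd and Cadm4) and 0 higher, where 0.281% and 1.75% of all genes were. At an unadjusted edgeR p under 0.05 the counts were 3 lower and 2 higher, where 6.29% and 9.55% of all genes were. The groups did not overlap for 2 genes that were lower and 0 that were higher, where 0.57% and 0.61% of all genes did not. Since Cnmd and Cadm4 were taken from this contrast, nothing is read from these counts.

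A liver weight is on record in the study's supplement for 7 animals, namely VDD4, VDD5, VDD6, VDS3, VDS4, VDS5 and VDS6. None is on record for the other 5, so that the sets hold 3 VDD-F1 with 4 VDS-F1 and 3 VDD-F1 with 2 VDS-F1. The 7 are called weighed mice here. What else differed between these sets is not stated. Among the weighed mice Cadm4 averaged 1.79 CPM after the deficient diet and 9.38 CPM after the sufficient one, against 3.83 and 10.2 CPM among the others. For Cnmd the means were 0.295 and 2.11 CPM among the weighed mice, and 0.596 and 1.21 CPM among the others. The log2 fold change between diets was -2.38 (SE 0.21) for Cadm4 and -2.82 (SE 0.41) for Cnmd in the weighed mice. It was -1.42 (SE 0.58) and -1.04 (SE 1.18) in the others. For Nrp1 it was -0.57 (SE 0.13) and -0.60 (SE 0.19), and for Angpt2 0.97 (SE 0.44) and 0.87 (SE 0.70). Angpt1 had 1.66 (SE 0.42) in the weighed mice and 0.30 (SE 0.66) in the others, among which VDS1 was 1 of 2 VDS-F1 livers. The sign differed between the sets for Flt1, at 0.0052 (SE 0.15) in the weighed mice and -0.26 (SE 0.20) in the others, and for Tek, at -0.19 (SE 0.15) and 0.17 (SE 0.34).

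The difference between the sets was then tested, as the genes had not been chosen on it. The diet by set interaction in edgeR passed an adjusted p under 0.05 for 0 of the 10 genes and an unadjusted p under 0.05 for 0 of them, where 0.0883% and 9.01% of all genes did. DESeq2 also gave 0 at the adjusted threshold. The interaction was 1.37 (SE 0.72, adjusted p = 0.619 in edgeR) for Angpt1, -1.77 (SE 1.14, adjusted p = 0.724) for Cnmd and -0.96 (SE 0.59, adjusted p = 0.707) for Cadm4, each as the weighed minus the other set. A diet difference that varies between the sets was thus not detected for these genes, which does not show that the sets are alike.

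The level itself was compared between the sets with diet held in the model. None of the 10 genes was called, where 0.281% of all genes were called higher and 0.61% lower in the weighed mice. At an unadjusted p under 0.05 there was 1, Kdr, where 13.9% of all genes passed. Kdr was 0.35 log2 units higher in the weighed mice (SE 0.10, edgeR adjusted p = 0.0897). Over the alternatives, with DESeq2 and with each mouse left out, its adjusted p ran from 0.0212 (edgeR without VDD2) to 0.242, and it was 0.0368 in DESeq2, always at a difference under 1. Flt1 was 0.26 higher (SE 0.12, edgeR adjusted p = 0.378) and Tek 0.33 higher (SE 0.18, edgeR adjusted p = 0.461), although Tek was 0.13 higher without VDS1. Cadm4 was lower there (log2 difference -0.58, SE 0.32, edgeR adjusted p = 0.465), with a difference of -0.29 without VDD1. The remaining 6 lay between -0.45 (Angpt1) and 0.14 (Angpt2).

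Haemoglobin genes were called between the same sets. Of 5 red blood cell markers, 4 were called lower in the weighed mice by edgeR, namely the haemoglobin genes, with Hbb-bs at a log2 difference of -1.70 (adjusted p = 0.00671) and Hba-a1 at -1.51 (adjusted p = 0.0161). The remaining one, Alas2, an enzyme of haem synthesis named after its values were seen, lay the other way (0.35, edgeR adjusted p = 0.324). The summed level of the list ranged from 237 to 484 CPM in the weighed mice and from 523 to 1371 CPM in the others, without overlap. Over the 12 livers it correlated at -0.68 with Kdr, at -0.70 with Tek and at -0.34 with Flt1. Of the 12 endothelial markers 0 were called between the sets by edgeR, with 3 higher in the weighed mice at an unadjusted p under 0.05, where 13.9% of all genes passed in either direction. Their sum ranged from 433 to 568 CPM in the weighed mice and from 370 to 474 CPM in the others, with overlap. The part of either list in the set differences of Kdr, Flt1 and Tek was not tested.

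**Figure D3:**
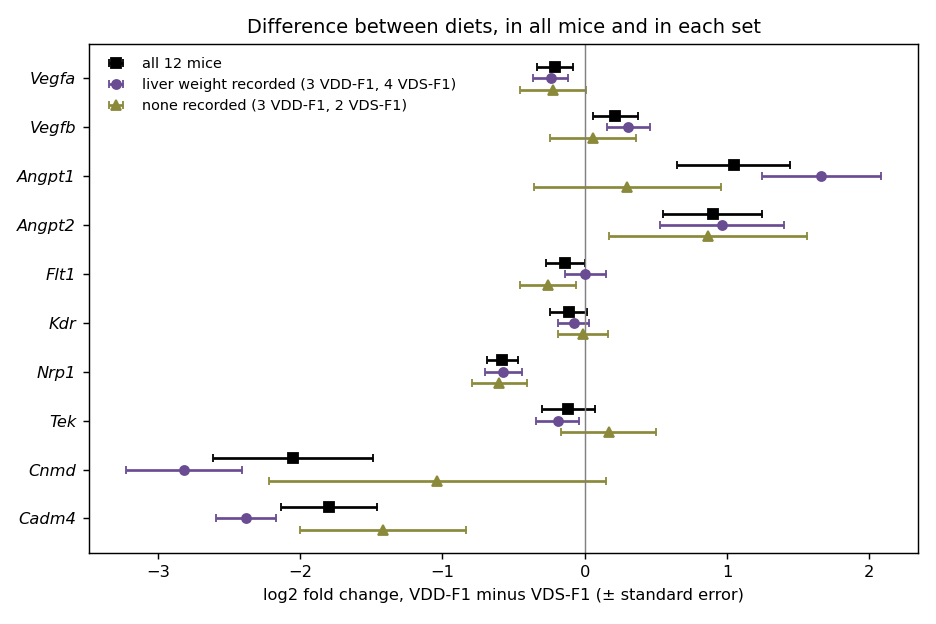
Log2 fold change of VDD-F1 minus VDS-F1 (x axis, ± SE) for each of the 10 genes (y axis), fitted in all 12 mice, in the 7 weighed mice and in the other 5. Cnmd, Cadm4 and Nrp1 lie left of 0 and both angiopoietins right of 0 in each of the 3 fits, while in the 5 other mice the SE bars of Cnmd (-1.04, SE 1.18) and Angpt1 (0.30, SE 0.66) reach past 0.

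Endothelial cells are the main source of Kdr, Flt1 and Tek in liver. In bulk tissue, fewer cells of a type and less RNA per cell cannot be told apart. The summed level of 12 liver endothelial markers, led by Eng and Stab2, ranged from 401 to 473 CPM in VDD-F1 (median 446) and from 370 to 568 CPM in VDS-F1 (median 511). All 12 were tested and 0 were called between diets, with 1 higher and 4 lower at an unadjusted p under 0.05, where 9.55% and 6.29% of all genes were. VDS1, the liver with the lowest Tek, also had the lowest endothelial sum, 370 CPM. Across the 12 livers the correlation with this sum (Pearson, log2 CPM, as a description) was 0.77 for Kdr, 0.76 for Tek and 0.60 for Flt1, whereas it was 0.30 for Nrp1, 0.25 for Cadm4 and 0.40 for Cnmd. The libraries share their depth scaling between both axes, and the diet means were not removed. The part of endothelial content in the receptor levels was not tested.

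Cholangiocyte markers, from the lining of the bile ducts, also lay higher on average in VDD-F1. The summed level of the 6 markers ranged from 23.9 to 117 CPM in VDD-F1 and from 28.1 to 51.6 CPM in VDS-F1. On average most of it came from Spp1 and Sox9, with means of 31.8 and 23.3 CPM in VDD-F1. Their means in VDS-F1 were 17.9 and 16.2 CPM. All 6 markers were fitted higher in VDD-F1, and 0 were called by edgeR. At an unadjusted p under 0.05 there were 4, where 9.55% of all genes were higher. Among these was Cldn7, named after its values were seen, which reached the filter through VDD-F1 with mean counts of 20 there and 8 in VDS-F1. VDD2, the liver with 0 counts of Cnmd and the lowest Cadm4, had the highest sum (117 CPM). VDD1, with the highest Cadm4 of its group, had the lowest (23.9 CPM). Among VDS-F1, VDS1 had the lowest Cnmd and the highest sum (51.6 CPM), but its Cadm4 (10.8 CPM) was above the median of its group, and VDS5, with the lowest Cadm4 (7.98 CPM), had a sum of 34.5 CPM. Within VDS-F1 Cadm4 thus did not run opposite to the sum. The correlation with this sum over the 12 livers was -0.85 for Cnmd, -0.77 for Vegfa, -0.76 for Cadm4, 0.73 for Angpt1 and 0.62 for Angpt2. Other sums ran with these genes too: Angpt1 correlated at 0.76 with the hepatocyte sum and at -0.66 with the endothelial sum, and the lymphoid and dendritic sum correlated at -0.66 with Cnmd and at -0.67 with Cadm4. The diet means were not removed from these correlations, so those of Cnmd and Cadm4 carry the diet difference they were chosen for. The part of any of these cell types in the differences was not tested. Without VDD2 the log2 fold change was -1.77 for Cnmd and -1.63 for Cadm4.

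The other marker lists were stellate (led by Reln and Dcn), Kupffer and macrophage (Cd5l and Clec4f), lymphoid and dendritic (Cd3e and Cd79a), mesothelial (Upk3b and Wt1) and red blood cell (Hbb-bs and Hba-a1). By edgeR none of their tested genes was called between the diets. At an unadjusted p under 0.05, where 9.55% of all genes were higher and 6.29% lower, there were 2 higher and 1 lower of 8 stellate genes, 1 higher and 2 lower of 8 Kupffer and macrophage genes, and 0 in the other lists. Of the 8 hepatocyte genes, led by Alb and Apob, 1 was lower at that level. DESeq2 called 1 Kupffer and macrophage gene higher, where 1.75% of all genes were. It was Ccr2, named after its values were seen, which reached the filter through VDD-F1 with mean counts of 47.3 there and 10 in VDS-F1.

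Over the 12 livers Cnmd and Cadm4 had a Pearson correlation of 0.87, which carries the diet difference they were chosen for. It was 0.66 after the mean of each diet group was removed, and Spearman's rho was 0.65. Kdr correlated at 0.70 with Tek and at 0.68 with Flt1, and these values were 0.69 and 0.66 without the diet means. Vegfb and Cadm4 correlated at 0.05 over all livers and at 0.67 without the diet means. Angpt1 ran opposite to Cnmd (-0.84, and -0.66 without the diet means). Vegfa and Cnmd correlated at 0.67, and at 0.59 without the diet means. Vegfa and Kdr, a ligand and its receptor, were at -0.30.

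Of all genes tested, the 5 with a pattern most like Cnmd were Scly, a selenocysteine lyase (0.97), Aspscr1 (0.96), the cytochrome P450 genes Cyp2c50 (0.96) and Cyp2c37 (0.95), and the major urinary protein gene Mup12 (0.95). The 5 most like Cadm4 were all major urinary protein genes: Mup7 (0.98), Mup11 (0.97), Mup15 (0.97), Mup16 (0.97) and Mup17 (0.96). After removal of the diet means these correlations lay between 0.88 and 0.95. Mup7 had a mean of 136 ± 202 CPM in VDD-F1 and 1051 ± 322 CPM in VDS-F1. Cyp2c50 had 254 ± 141 and 710 ± 202 CPM, whereas Scly differed little in size (84.4 ± 9.25 and 106 ± 8.71 CPM). The Mup and Cyp2c genes have near-identical copies that share reads, so that the values of single members are uncertain.

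Further genes of the pathway were taken from 8 lists with 60 genes in all. The lists were written from known roles, but with earlier results of these data known. Their p-values between the diets are therefore a description. Of the 60 genes 51 passed the filter, 29 were fitted higher in VDD-F1 and 22 lower, and the median log2 fold change was 0.01. By edgeR 0 were called after adjustment over all genes, with 5 of 51 higher and 5 of 51 lower at an unadjusted p under 0.05, where 9.55% and 6.29% of all genes were, so that these shares lay near those of all genes. By DESeq2 2 of 51 were called higher, Esm1 and Thbs2, where 1.75% of all genes were. Those with the smallest p are given by role.

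Esm1 (endocan) is secreted by endothelial cells that receive Vegf signals. It stood at 0.757, 4.70, 2.41, 4.12, 5.73 and 4.94 CPM in VDD1 to VDD6, and at 1.18, 0.590, 0.206, 0.884, 0.903 and 0.859 CPM in VDS1 to VDS6. All VDD-F1 livers but VDD1 lay above all VDS-F1 livers. The log2 fold change was 2.27 (SE 0.44, edgeR adjusted p = 0.0640) and missed the threshold. It was past it in 6 of 23 alternatives, DESeq2 and the fit without VDD1 (2.48) among them, and the adjusted p of edgeR, DESeq2 and voom in these alternatives ran from 0.000142 to 0.9998 (the highest in the 5 mice alone).

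Among the restraints of vessel growth, the thrombospondins Thbs1 and Thbs2, matrix proteins that inhibit endothelial cells, lay higher in VDD-F1. Thbs2 stood at 2.84, 16.5, 7.005, 12.7, 11.3 and 7.65 CPM in VDD1 to VDD6, and at 5.28, 4.19, 2.06, 2.91, 3.26 and 3.72 CPM in VDS1 to VDS6. Again VDD1 was the only VDD-F1 liver within the VDS-F1 range. Its log2 fold change was 1.43 (SE 0.34, edgeR adjusted p = 0.0905), and it was past the threshold in 5 of 23 alternatives, again with DESeq2 and without VDD1 (1.62), over a range of adjusted p from 0.000582 to 0.9998. Thbs1 had 8.43 ± 5.22 and 3.74 ± 1.82 CPM in VDD-F1 and VDS-F1, a log2 fold change of 1.16 (SE 0.41) that did not pass (edgeR adjusted p = 0.192). Spry2, an inhibitor of receptor tyrosine kinase signalling, had 2.12 ± 0.629 and 1.31 ± 0.309 CPM (edgeR adjusted p = 0.222).

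**Figure D4:**
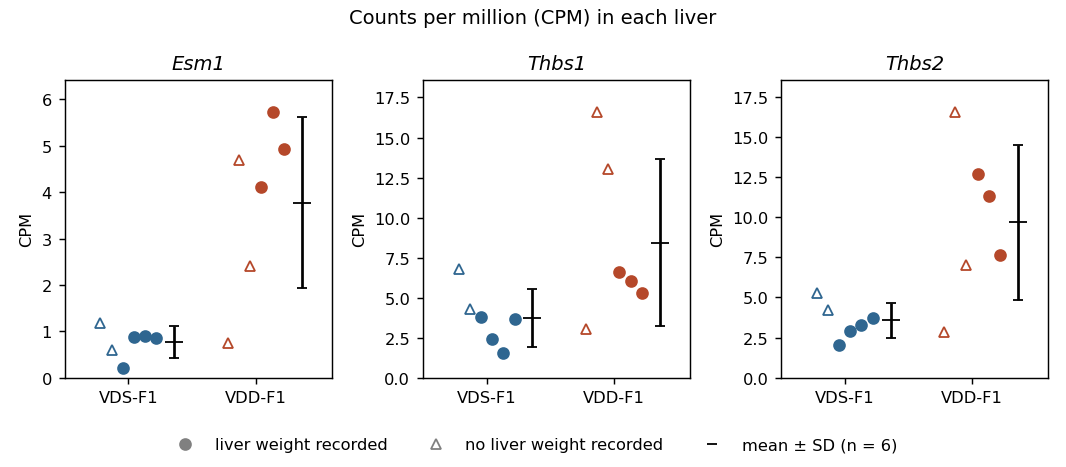
CPM of Esm1, Thbs1 and Thbs2 in each liver (y axes, from 0) by diet group (x axis), with filled circles for the 7 weighed mice, open triangles for the other 5 and bars for the mean ± SD of 6. For Esm1 and Thbs2 all VDD-F1 points except VDD1 (0.757 and 2.84 CPM) lie above every VDS-F1 point.

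The remaining differences among these were small and did not pass the test. Nrp2, the co-receptor related to Nrp1, had 20.5 ± 3.92 CPM in VDD-F1 and 28.8 ± 10.7 CPM in VDS-F1 (log2 fold change -0.49, edgeR adjusted p = 0.273). Of the receptor signal transducers, Shb, an adaptor that binds Kdr, had a log2 fold change of -0.40 (edgeR adjusted p = 0.265) and the regulatory kinase subunit Pik3r1 -0.23 (adjusted p = 0.241). Rcan1, a calcineurin regulator induced by Vegf, had -0.40 (edgeR adjusted p = 0.309). Cadm1, a paralogue of Cadm4, had 39.6 ± 7.06 and 31.3 ± 4.48 CPM (log2 fold change 0.34, edgeR adjusted p = 0.229), opposite in sign to Cadm4. Tnmd, the paralogue of Cnmd, had no read in any library.

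By list, at an unadjusted p under 0.05, where 9.55% of all genes were higher and 6.29% lower, there was 1 lower of 5 other receptors and co-receptors, 3 lower of 14 signal transducers, 3 higher of 9 restraints of angiogenesis, and 1 higher and 1 lower of 7 endothelial response genes. There was 1 higher of the 2 paralogues, and 0 of 8 oxygen sensing regulators of Vegfa, of 5 angiocrine factors and of the 1 further ligand tested.

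**Figure D5:**
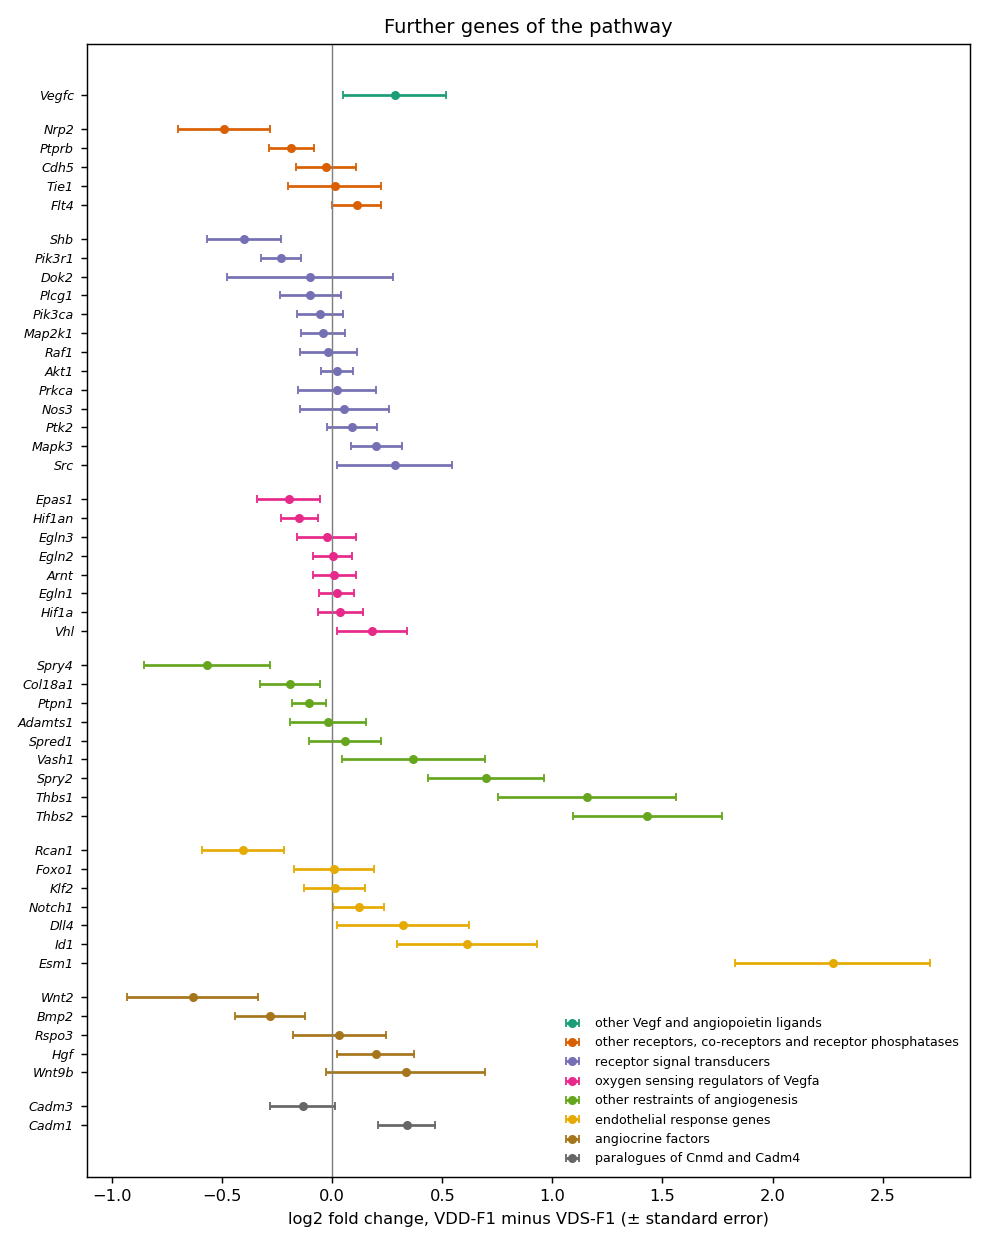
Log2 fold change of VDD-F1 minus VDS-F1 (x axis, ± SE) for 50 of the 51 tested pathway genes (y axis), coloured by list. Esm1 (2.27), Thbs2 (1.43) and Thbs1 (1.16) are the genes beyond 1, and the oxygen sensing regulators lie within 0.20 of 0.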

How the data were processed

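The authors removed ribosomal RNA, prepared stranded libraries, trimmed adapters, mapped the read pairs by STAR on mm10/GRCm38 with GENCODE M15 (the STAR version is not given in the sources used here) and deposited raw counts per gene, 1 library per mouse, without normalization. The reverse-strand count was used, which held 92.7% to 95.8% of the stranded counts. Unmapped, multimapping, unassigned and ambiguous totals were left out. Symbols and positions came from GENCODE M21 (52489 of 52636 identifiers matched) and promoter sequences from RefSeq (GRCm38.p6, 8 of the 10 genes matched).

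CPM used TMM-scaled library sizes, and log2 CPM for correlations a prior count of 2. Counts were tested in R 4.3.3 with edgeR 4.0.16 (quasi-likelihood, legacy form), keeping those whose count averaged 12 or more over the libraries. A gene was called at a Benjamini-Hochberg adjusted p under 0.05 over all genes together with a log2 difference beyond 1 in either direction. The study's own test, DESeq2 (1.42.0), was run as an alternative, as were voom in limma 3.58.1, other filters and scalings, counts without strand, each set of mice, the set as a covariate, a replicate block and each mouse left out. Figures used matplotlib 3.10.9 in Python 3.11.15. The edgeR fit between the diets was tested on simulated counts in which 200 of 12453 genes were changed 4-fold. It called 190 of these and 3 unchanged genes. Smaller changes and the other fits were not simulated. Low counts limit precision for Cnmd, Angpt1 and Angpt2.

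The genes and lists were chosen with earlier results of these data known. Named were the 10 genes, the 10 further pathway genes with the smallest p (1 of them is not reported here), the 5 genes most like Cnmd and the 5 most like Cadm4, and the 2 most abundant genes of each marker list.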

Additional observations from a re-analysis of the deposited data

Results flagged for a closer look

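In 20 groups of 6 livers (10 genes in each diet group), 2 had a sample far from the others by Dixon's criterion, that is, with a gap to its nearest neighbour above the 95% critical share of the group's range. Chance would single out about 1 in 20 such groups. Both were the same liver, VDS1. Its Angpt1 was 1.53 CPM, where the other 5 VDS-F1 livers lay between 0.206 and 0.676 CPM (gap of 0.645 of the range). Its Tek, the receptor of Angpt1, was 7.06 CPM, where the others lay between 14.2 and 16.2 CPM (gap of 0.789 of the range). The same liver had the lowest endothelial marker sum (370 CPM) and the lowest Cnmd (0.642 CPM) of its group, and the highest red blood cell marker sum of all 12 livers (1371 CPM, the next 834 CPM in VDS2).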

How the results depend on the processing

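The log2 fold change of the 10 genes between the diets moved by less than the spread between replicates in 227 of 230 refits. It changed sign in 2, Flt1 in the weighed mice (0.0052) and Tek in the other 5 mice (0.17), both near 0. The 3 that moved further were Angpt1 in the weighed mice (1.66) and in the other 5 (0.30), and Cnmd in the other 5 (-1.04). Calls over all genes depended on the fit, for causes that were not tested. Of all genes, 5 were called between the diets by edgeR, 253 by DESeq2, 252 by voom with quality weights, 70 with no filter and 21 with the set as a covariate. There were 536 in the weighed mice only, 0 in the other 5 mice only and 17 in the newer edgeR form, which was chosen after seeing the data. Leaving out 1 mouse gave 0 to 260, the highest without VDD1, then 94 without VDD3. Of the further pathway genes 0 were called by edgeR, 2 by DESeq2, by voom and with no filter (Esm1 and Thbs2 each time), and 5 in the weighed mice only (these and Thbs1 higher, Wnt2 at -1.02 and Spry4 at -1.21 lower, the last pair named after their values were seen). Leaving out 1 mouse gave 0 to 2, with 2 without VDD1. The groups did not overlap for 2 of the 10 genes, both lower, where 0.57% of all genes were lower and 0.61% higher without overlap. It was 4 in the weighed mice only and 2 to 4 with 1 mouse left out (4 without VDS1, when Cnmd and Angpt1 were added). Groups of fewer livers are separate more often by chance. The share of all genes was not computed for them, so nothing is read from the rise.

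With the replicate block 17 genes were called between the diets. The numbers name different mice, and the deviations of mice with the same number from their group means correlated at -0.08 to 0.10, with the own number best for 0 of 6.

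Between the sets of mice 111 genes were called, 68 to 178 with 1 mouse left out (178 without VDD2). For the diet by set interaction 11 genes passed in edgeR and 138 in DESeq2. Small set differences changed sign: that of Cnmd (0.03) was -0.077 in DESeq2, and that of Angpt2 (0.14) was -0.12 with strand ignored. With 1 mouse left out they ran from -0.64 to 0.0039 for Angpt1, from -0.049 to 0.35 for Angpt2, from -0.13 to 0.064 for Nrp1 and from -0.43 to 0.36 for Cnmd, and without a change of sign from 0.13 to 0.46 for Tek and from -0.75 to -0.29 for Cadm4.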
